A study of Saccharomyces cerevisiae with 4 samples.

Results

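The mevalonate and ergosterol pathway genes of budding yeast, Saccharomyces cerevisiae, were followed in the nhp6ab strain and in wild-type (WT) cells. They are 31 genes, taken by systematic identifier, among 6688 gene identifiers in the deposited tables, and all 31 were present and passed the low-count filter. The list holds 9 genes of the mevalonate route, 14 of the route from farnesyl diphosphate to ergosterol, 2 electron donors, 3 regulators and 3 genes of sterol esterification and transport. Polyadenylated RNA was sequenced from 2 nhp6ab libraries and 2 WT libraries, all from cells in exponential growth in YPD, a rich medium with glucose. The labels give the genotype only as nhp6ab or WT; nhp6ab is the usual name of a strain that lacks NHP6A and NHP6B, which encode small DNA-bending proteins with an HMG box that work with the histone chaperone FACT. The labels give no strain background, no description of the deleted bases and no word on whether replicates were separate cultures, so each p-value speaks only of how far these libraries varied, a variation that may be technical in origin.

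Ergosterol is the main sterol of the yeast plasma membrane and the fungal counterpart of cholesterol. Acetyl-CoA is built up through mevalonate to farnesyl diphosphate, a branch point that also feeds dolichol, quinone and protein prenylation. Squalene is then made from farnesyl diphosphate, oxidised, closed to lanosterol and trimmed, desaturated and methylated into ergosterol in steps that use oxygen and, for several enzymes, heme or iron. The zinc-cluster factors Upc2 and Ecm22 activate many of these genes through a sterol regulatory element, and Mot3 represses some of them.

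The expected counts summed to 22622592 to 29115870 per library. CPM are counts scaled by each library's total and by its TMM scaling factor, so their sums differ between libraries. NHP6A had 11.1 and 12 CPM in nhp6ab, against 122.5 and 129.6 CPM in WT. NHP6B had 33.4 and 32.6 CPM in nhp6ab, against 80.0 and 86.0 CPM in WT. Both targeted genes were lower in the libraries labelled nhp6ab, at 0.0919 (NHP6A) and 0.398 (NHP6B) of their WT levels by the fitted fold change. Neither was at 0, and since the labels do not say which bases were deleted, these levels do not show that either gene was lost. Both strains carried the transcripts of alpha cells, with summed alpha-cell markers of 1456 and 1574 CPM in nhp6ab and 2306 and 2111 CPM in WT. The a-cell pheromone genes MFA1 and MFA2 stayed below 0.4 CPM in every library and were not tested. The other a-cell genes listed, STE6, STE2 and BAR1, were detected at higher CPM in every library, and none was called. In TPM, a level per length, the values of MFA1 and MFA2 overlapped those of BAR1. Of the 4 alpha-cell markers 3 were called lower in nhp6ab, against 25% of all genes tested. Among 7 common auxotrophic marker genes 3 were called higher and 2 lower, against 24.5% and 25% of all genes. By the fitted fold change HIS3 was at 2.63, URA3 at 1.92 and TRP1 at 1.13 of the WT level. MET17 was at 0.663 and LYS2 at 0.378. ADE2, which was not called, had 994 and 440 CPM in the nhp6ab libraries. The strains thus differed in some genes that can mark strain construction, though no list was tested as a whole. The part of these differences in the results below was not tested. In a culture, fewer cells that carry a transcript and less of it per cell cannot be told apart. Without a spike-in every change is relative to the rest of the transcriptome.

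As a set, the pathway genes were called at about the rate of all genes, and they split in both directions. The threshold for a call was 0.05 for the p-value of edgeR, adjusted over 6422 genes. In all, 17 of the 31 members were called (54.8%), against 49.5% of all genes tested. Of the 31 members, 8 were higher in nhp6ab (25.8%), against 24.5% of all genes tested, and 9 were lower (29.0%), against 25%. The other 14 were not called. The median log2 fold change was 0.04 for the members and 0.01 for all genes tested. The CPM ranges of the 2 strains did not overlap for 13 members with nhp6ab above WT, against 38.9% of all genes, and for 11 members with nhp6ab below WT, against 38.7%. Fewer were called with 1 library left out. Without nhp6ab replicate 1, 4 members were higher and 9 lower, against 20.6% and 23.2% of all genes, and without nhp6ab replicate 2 there were 8 higher and 8 lower, against 22.7% and 24.1%. Without WT replicate 1, 2 were higher and 6 lower, against 14% and 16.5% of all genes, and without WT replicate 2 there were 3 higher and 8 lower, against 14.2% and 17.1%. With the replicate number as a block, 7 were higher and 9 lower, against 25.3% and 26.3% of all genes.

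The scaling sets the direction of small changes. Without TMM factors, scaled by library size alone, the median log2 fold change over all genes was 0.22, and 18 members were called higher and 5 lower, against 47.1% and 12.5% of all genes. On the log2(TPM + 1) scale the median of all genes was 0.28, and 20 members were called higher and 4 lower, against 55.3% and 9.6% of all genes. On log2(TPM + 0.1) the members' counts were again 20 and 4, against 55% and 9.56% of all genes. In all, 6 of the 17 called members held their call and direction in each of 13 alternatives. The share of all called genes that did so was not counted, so the 6 are no result about the pathway as a set. These 6 members are described first: ERG3, ERG25, ERG5 and ERG11, which fell, and NCP1 and ECM22, which rose.

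**Figure D1:**
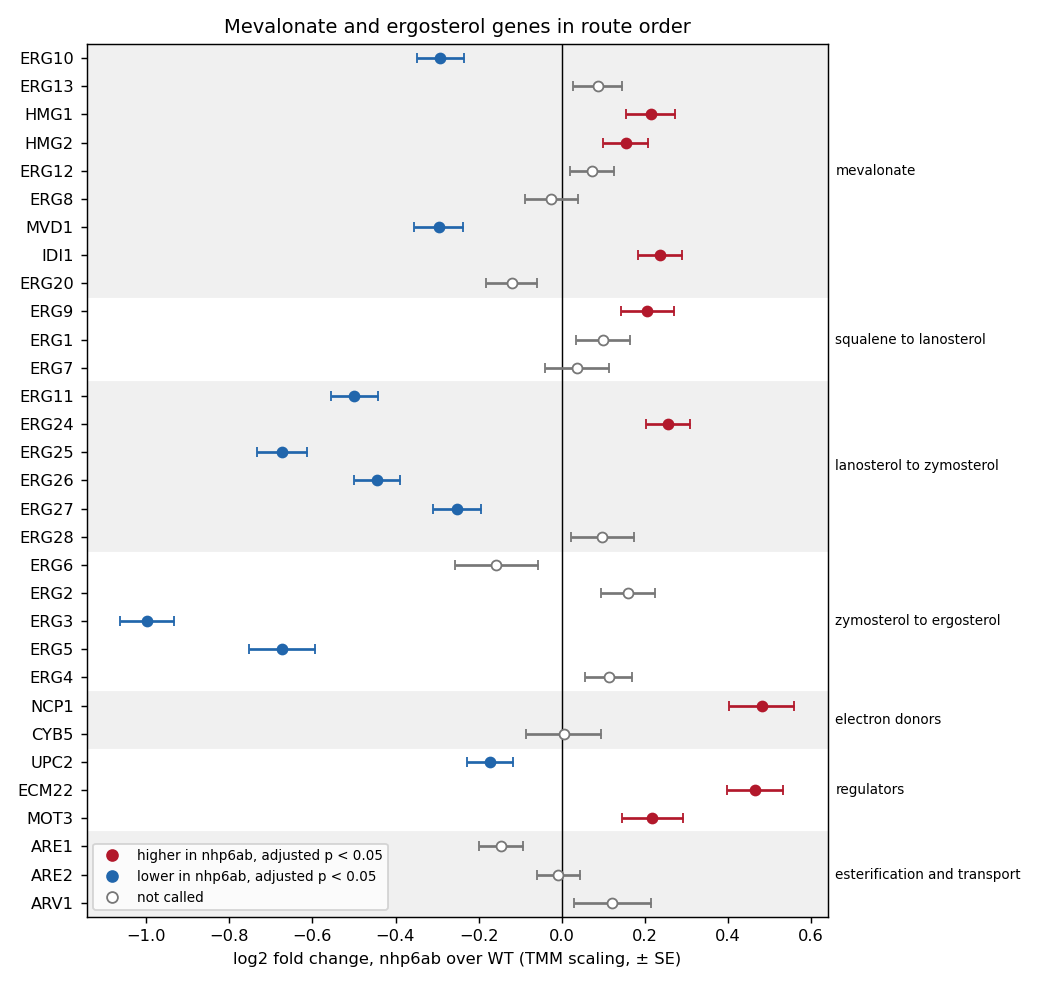
Log2 fold change of nhp6ab over WT for each of the 31 members, with its standard error, in the order of the route. Filled points passed the test (8 to the right of 0 and 9 to the left), and the point farthest left is ERG3 at -0.997.

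ERG3 changed more than any other member. It encodes the sterol desaturase that puts a double bond into the B ring late in the route. ERG3 (YLR056W; sacCer3 chromosome XII, 253861 to 254958, plus strand, 1 coding exon) had 141 and 149 CPM in nhp6ab, against 301 and 278 CPM in WT. Its mean was 145 ± 5.47 CPM in nhp6ab and 289 ± 16.3 CPM in WT (SD, n = 2 each), 50.1% of the WT level, with a log2 fold change of -0.997 ± 0.07 SE and an adjusted p of 6.09e-05 in edgeR. Both nhp6ab libraries lay far below both WT libraries, and over the alternatives the log2 fold change ran from -1.05 to -0.70. By the size of its change ERG3 ranked 304 among all genes tested.

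The promoters of ERG3, ERG25 and ERG13 each hold a pair of matches to the sterol regulatory element TCGTATA within the 500 bases before the start codon; ERG3 and ERG25 fell and ERG13 was not called. The stretches with these matches are shown beside those of ERG1, ERG2 and ERG6, which hold 1 match each and were not called either, so that the letters around them can be compared. Sequences are from RefSeq's R64 assembly (sacCer3), 5′ to 3′ on the strand of the gene, with each match in capitals, read as TCGTATA or, on the other strand, as TATACGA. They lie at chrXII:253515-253601 (ERG3, plus strand), chrVII:610064-610127 (ERG25, plus strand), chrXIII:20723-20769 and chrXIII:20610-20656 (ERG13, minus strand), chrVII:848779-848825 (ERG1, minus strand), chrXIII:667332-667378 (ERG2, plus strand) and chrXIII:253396-253442 (ERG6, minus strand).

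ERG3: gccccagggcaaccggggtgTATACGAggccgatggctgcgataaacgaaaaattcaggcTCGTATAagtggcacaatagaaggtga

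ERG25: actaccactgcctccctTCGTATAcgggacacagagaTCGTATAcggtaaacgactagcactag

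ERG13, far match: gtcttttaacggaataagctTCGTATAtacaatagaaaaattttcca

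ERG13, near match: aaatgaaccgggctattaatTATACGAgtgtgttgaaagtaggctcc

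ERG1: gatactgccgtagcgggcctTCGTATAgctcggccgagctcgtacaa

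ERG2: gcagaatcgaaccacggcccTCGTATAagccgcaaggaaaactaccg

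ERG6: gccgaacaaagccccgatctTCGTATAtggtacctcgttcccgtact

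In ERG3 the matches begin 326 and 286 bases before the start codon, and in ERG25 they begin 483 and 463 bases before it and in ERG13 214 and 101 bases before it. Over all 31 members, 9 promoters (29.0%) held TCGTATA on either strand, against 420 of 6000 promoters of the same length (7%). The 9 were those of ERG13, ERG8, ERG1, ERG25, ERG28, ERG6, ERG2, ERG3 and CYB5. Of them 2 were called lower, 0 were called higher and 7 were not called, so genes with the same letters in their promoters did not share a call. The 6 base core ATTGTT of the Rox1 repressor, searched on both strands, was in 20 member promoters (64.5%) and in 48.9% of all, and the motif of the heme-activated factor Hap1 was in 0 member promoters and in 0.35% of all. A match is a description of the letters and no measure of binding.

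ERG25, ERG5 and ERG11 fell together with ERG3. ERG25 (YGR060W; chromosome VII, 610564 to 611493, plus strand), which encodes the oxidase that starts the removal of the methyl pair at carbon 4, had 141 and 146 CPM in nhp6ab, against 237 and 220 CPM in WT. It kept 62.7% of its WT level, a log2 fold change of -0.67 with an SE of 0.06 (edgeR, adjusted p = 0.000201), and no nhp6ab library came near a WT library. ERG5 (YMR015C; chromosome XIII, 300869 to 302485, minus strand), the cytochrome P450 that desaturates the side chain, was the least abundant of these transcripts, with 48.3 and 53.7 CPM in nhp6ab, against 86.2 and 76.3 CPM in WT. Its log2 fold change was -0.67 ± 0.08 SE (adjusted p = 0.000633), the same size as that of ERG25 within their errors. ERG11 (YHR007C; chromosome VIII, 120091 to 121683, minus strand), the lanosterol demethylase and the target of azole antifungals, had 299 and 288 CPM in nhp6ab, against 418 and 411 CPM in WT. It kept 70.8% of its WT level, a log2 fold change of -0.50 with an SE of 0.06 (adjusted p = 0.000578), and the spread between replicates was small against the gap between strains.

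ERG3, ERG25, ERG5 and ERG11 are the enzymes of the list that are known to use iron: Erg11 and Erg5 are P450 enzymes that bind heme, and Erg25 and Erg3 are membrane oxidases with iron outside heme. This grouping was made after the values were seen, so its counts are a description with no test. It holds enzymes only: the electron donor cytochrome b5 also binds heme. Its gene CYB5 was not called (log2 fold change of 0.01 ± 0.09 SE, adjusted p = 0.965 in edgeR). All 4 were called lower, with log2 fold changes of -0.997 to -0.50. The other 19 genes of the mevalonate and ergosterol route, which include the scaffold gene ERG28, ranged from -0.44 to 0.26. Of these 19, 5 were called higher and 4 lower, against 24.5% and 25% of all genes tested. The lowest of them, ERG26, had a log2 fold change of -0.44 ± 0.05 SE (adjusted p = 0.000753 in edgeR). It overlapped that of ERG11 (-0.50 ± 0.06 SE) within their errors. On the TPM scale, which counts transcripts per length, the summed level of the 4 was 459 and 479 TPM in nhp6ab, against 632 and 619 TPM in WT. The summed level of the other 19 was 3490.4 and 3470.3 TPM in nhp6ab, against 2879.6 and 2881 TPM in WT. The 2 sums therefore went in opposite directions on that scale, on which the median of all genes was 0.28 higher in nhp6ab. In TMM-scaled CPM both sums were lower in nhp6ab on average: the 4 summed to 629 and 636 CPM in nhp6ab, against 1042 and 986 CPM in WT, and the other 19 to 4354 and 4228 CPM in nhp6ab, against 4421 and 4262 CPM in WT. The sums of the other 19 overlapped between strains in CPM, and those of the 4 did not on either scale. Summed over all genes tested, TMM-scaled CPM in nhp6ab were 0.863 of those in WT. That ratio follows from the TMM factors and is not the change of a typical gene. The median log2 fold change over all genes tested was 0.01. A lower CPM sum is therefore not by itself a smaller share of all counts. ERG1, which encodes squalene epoxidase, an oxygen-using enzyme that depends on flavin and not on iron, had a log2 fold change of 0.10 ± 0.07 SE and was not called (adjusted p = 0.240).

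NCP1 moved the other way from the P450 genes that its product serves. It encodes the NADPH-cytochrome P450 reductase that passes electrons to Erg11 and Erg5 and can feed squalene epoxidase. NCP1 (YHR042W; chromosome VIII, 190543 to 192618, plus strand) had 281.7 and 281.6 CPM in nhp6ab, against 217 and 187 CPM in WT. It was 1.40-fold higher in nhp6ab (log2 fold change of 0.48, SE 0.08, edgeR's adjusted p = 0.00245), with both nhp6ab libraries above both WT libraries. The ratio of NCP1 to ERG11 in TPM was 0.719 and 0.746 in nhp6ab, against 0.396 and 0.346 in WT, so the libraries of the 2 strains were well apart. CYB5, cytochrome b5, the other electron donor of the route, had 28.1 and 31.3 CPM in nhp6ab, against 31.6 and 27.4 CPM in WT. Its ranges overlapped, and its log2 fold change of 0.01 ± 0.09 SE was not called (adjusted p = 0.965), although on log2(TPM + 1) it was called higher (0.30, adjusted p = 0.0254).

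**Figure D2:**
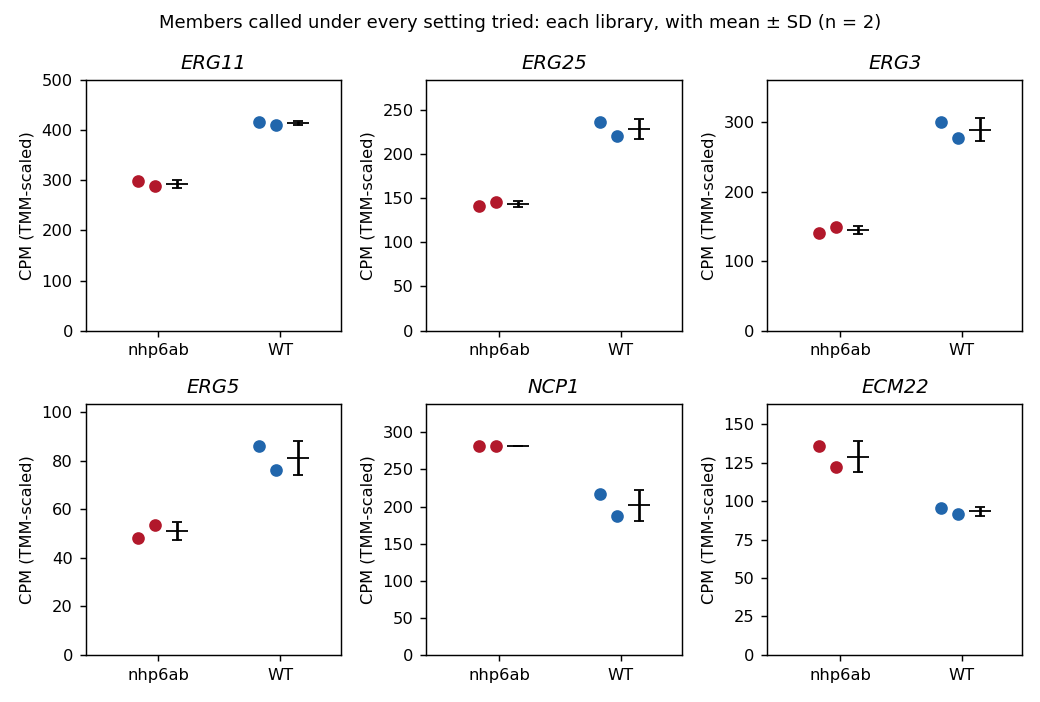
CPM of the 6 members called in every alternative, with nhp6ab left of WT in each panel. Points are single libraries and bars give the mean ± SD (n = 2); in ERG11, ERG25, ERG3 and ERG5 both nhp6ab points lie below both WT points, and in NCP1 and ECM22 both lie above.

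Of the 3 regulators ECM22 rose most. ECM22 and UPC2 are related activators of the route, and their coding sequences align over 978 bases at 66.7% identity, too different to be near-identical copies. ECM22 (YLR228C; chromosome XII, 600019 to 602463, minus strand) had 136 and 122 CPM in nhp6ab, against 95.3 and 91.4 CPM in WT, a log2 fold change of 0.47 ± 0.07 SE (adjusted p = 0.00159 in edgeR). UPC2 (YDR213W; chromosome IV, 889751 to 892492, plus strand) had 73.4 and 71.0 CPM in nhp6ab, against 83.7 and 79.1 CPM in WT. Its log2 fold change of -0.17 ± 0.06 SE was called lower (adjusted p = 0.039), but it lost the call in DESeq2 (adjusted p = 0.0946) and without nhp6ab replicate 2 (0.0959), WT replicate 1 (0.203) or WT replicate 2 (0.0751), and its sign turned positive under library size (0.04) and on log2(TPM + 1) (0.12). The ratio of ECM22 to UPC2 in TPM does not depend on the scaling between libraries, and it was 2.08 and 1.93 in nhp6ab, against 1.28 and 1.3 in WT. ECM22 was thus the more abundant of the pair per length in every library, by more in nhp6ab. Ratios between members are given as values with no test; with 2 libraries against 2 the smallest p that a two-sided exact permutation test could give is 0.333.

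MOT3, the gene of the zinc-finger repressor, was the least abundant member per length, with 19.9 ± 0.862 TPM in nhp6ab and 13.9 ± 0.32 TPM in WT (SD, n = 2 each). It had 32.9 and 30.1 CPM in nhp6ab, against 28.0 and 26.1 CPM in WT, without overlap. Its log2 fold change of 0.22 ± 0.07 SE was called (adjusted p = 0.0433 in edgeR), a call lost with upper quartile factors (adjusted p = 0.054), in DESeq2 (0.140) and without nhp6ab replicate 1 (0.255), WT replicate 1 (0.0876) or WT replicate 2 (0.214).

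Under TMM scaling the mevalonate genes each changed by less than 1.3-fold, in both directions: of 9, 3 were called higher, 2 lower and 4 not. Over all genes tested, 24.5% were called higher and 25% lower. In deposited TPM the ratios of nhp6ab to WT ran up to 1.44 (IDI1), 1.42 (HMG1) and 1.36 (HMG2), on a scale shifted upward for all genes. ERG10, the acetoacetyl-CoA thiolase gene that opens the route, had 427 and 417 CPM in nhp6ab, against 523 and 510.3 CPM in WT (log2 fold change of -0.29, SE 0.06, edgeR's adjusted p = 0.00518). The decrease is relative to TMM scaling: in deposited TPM, ERG10 had 328.6 and 329.9 in nhp6ab and 326.7 and 331.4 in WT, so its share per length overlapped between strains, and with library size alone its log2 fold change of -0.08 was not called (adjusted p = 0.244). MVD1, the mevalonate pyrophosphate decarboxylase gene, gave the same picture, with 111 and 109 CPM in nhp6ab, against 139.6 and 129 CPM in WT (-0.30 ± 0.06, adjusted p = 0.0059). It lost its call with library size alone, on both TPM scales and without WT replicate 1 (adjusted p = 0.0611).

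IDI1, which encodes the isomerase that makes dimethylallyl diphosphate, had 215 and 208.6 CPM in nhp6ab, against 179 and 180.2 CPM in WT. It rose by 0.24 ± 0.05 SE on the log2 scale (adjusted p = 0.00976 in edgeR), with no overlap, but missed the threshold without WT replicate 1 (adjusted p = 0.0632) or WT replicate 2 (0.0578). The genes of HMG-CoA reductase, the rate-limiting step of the mevalonate route, rose too. HMG1 had 153 and 143 CPM in nhp6ab, against 129.8 and 126 CPM in WT (0.21 ± 0.06, adjusted p = 0.0205), and HMG2 had 111 and 109.9 CPM in nhp6ab, against 102 and 97.1 CPM in WT (0.15 ± 0.05, adjusted p = 0.0495). HMG1 was not called without nhp6ab replicate 1 (adjusted p = 0.0651), WT replicate 1 (0.0861) or WT replicate 2 (0.124). HMG2, which sat at the threshold, lost its call in 9 of 13 alternatives, among them the replicate block (adjusted p = 0.0706) and DESeq2 (0.104). The ratio of HMG1 to HMG2 in TPM was 1.37 and 1.29 in nhp6ab and 1.27 and 1.28 in WT, so the balance between these paralogs differed by no more than the nhp6ab replicates did.

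The 4 mevalonate genes without a call were ERG13 (HMG-CoA synthase; 0.09 ± 0.06), ERG12 (mevalonate kinase; 0.07 ± 0.05), ERG8 (phosphomevalonate kinase; -0.03 ± 0.06) and ERG20 (farnesyl diphosphate synthase; -0.12 ± 0.06), given as log2 fold change ± SE. ERG20 was one of the most abundant members, with 370.5 ± 14.6 CPM in nhp6ab and 403 ± 8.93 CPM in WT (SD, n = 2 each). Scaled by library size alone, ERG13 (adjusted p = 0.00447), ERG12 (0.0042) and ERG8 (0.034) were called higher, ERG8 with its sign turned. On log2(TPM + 1) all 4 were called higher, ERG13 with an adjusted p of 0.00227, ERG12 of 0.00375, ERG8 of 0.0187 and ERG20 of 0.0467, and the sign of ERG20 turned positive on these scales. The summed level of the 9 genes was 1349 and 1340.2 TPM in nhp6ab, against 1135 and 1172 TPM in WT, and in TMM-scaled CPM it was 1848 and 1788 in nhp6ab, against 1902 and 1881 in WT. The direction of the sum thus depends on the scale. The ratio of nhp6ab to WT in summed CPM was 0.961 for this stage and 0.863 over all genes tested. The second ratio follows from the TMM factors and does not give the change of a typical gene.

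From farnesyl diphosphate to lanosterol, ERG9 rose and the next 2 genes were not called. Over all genes tested, 24.5% were called higher. ERG9, squalene synthase, the first gene committed to sterols, had 427 and 409 CPM in nhp6ab, against 350.1 and 375 CPM in WT (log2 fold change of 0.21, SE 0.06, edgeR's adjusted p = 0.032). The ranges did not overlap, but the call was lost without nhp6ab replicate 1 (adjusted p = 0.153), WT replicate 1 (0.147) or WT replicate 2 (0.0543). ERG1 had 312 and 310.2 CPM in nhp6ab, against 304 and 277 CPM in WT. ERG7, the lanosterol synthase gene, had 109 and 107 CPM in nhp6ab, inside the WT values of 113 and 97.3 CPM (0.04 ± 0.08, adjusted p = 0.708). Both were called higher when scaled by library size alone (adjusted p = 0.00442 for ERG1 and 0.0227 for ERG7) and on log2(TPM + 1) (0.00193 and 0.00897).

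Between lanosterol and zymosterol, 4 of 6 genes fell and 1 rose, against 25% of all genes tested called lower and 24.5% higher. Beside ERG11 and ERG25, ERG26, the dehydrogenase that removes the carboxyl group in the same demethylation complex as Erg25, had 133 and 138 CPM in nhp6ab, against 188 and 182 CPM in WT. Its log2 fold change was -0.44 ± 0.05 SE (adjusted p = 0.000753 in edgeR). That decrease held in 11 of 13 alternatives and was not called on the TPM scales (log2 fold change -0.15 on log2(TPM + 1), adjusted p = 0.074). ERG27, the keto reductase of that complex, had 284 and 270.4 CPM in nhp6ab, against 329.7 and 330.5 CPM in WT (-0.25 ± 0.06, adjusted p = 0.0101), and its sign turned to 0.04 on log2(TPM + 1). It was not called with library size alone (adjusted p = 0.548) or without WT replicate 1 (0.0551) or WT replicate 2 (0.0558). ERG28, the scaffold of the complex, was not called (0.10 ± 0.08, adjusted p = 0.316); it passed as higher when nhp6ab replicate 2 was left out (0.19, adjusted p = 0.0378), by library size alone (0.31, adjusted p = 0.00601) and on log2(TPM + 1) (0.39, adjusted p = 0.00343).

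ERG24 stood apart from its neighbours in the route. It encodes the sterol reductase that acts directly after Erg11, and it had 138 and 143 CPM in nhp6ab, against 117 and 118.5 CPM in WT. It rose by 0.26 ± 0.05 SE on the log2 scale (adjusted p = 0.00666 in edgeR), a call lost only without WT replicate 1 (adjusted p = 0.0616) among the 13 alternatives. The summed level of the 6 genes of this stage was 1007 and 1000.5 TPM in nhp6ab, against 992 and 1001 TPM in WT. In TMM-scaled CPM it was 1100.04 and 1078 in nhp6ab, against 1384 and 1352 in WT. The stage sum thus overlapped between strains in TPM and was lower in nhp6ab, without overlap, in CPM. The ratio of nhp6ab to WT in summed CPM was 0.796 for this stage and 0.863 over all genes tested, the second of which follows from the TMM factors.

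In the last stage ERG3 and ERG5 fell and the other 3 genes were not called. Over all genes tested, 25% were called lower. ERG2, the sterol isomerase gene, had 282 and 281 CPM in nhp6ab, against 264 and 240.2 CPM in WT (log2 fold change of 0.16, SE 0.07, edgeR's adjusted p = 0.0800). ERG4, the reductase of the final step, had 356 and 349 CPM in nhp6ab, against 329 and 323 CPM in WT (0.11 ± 0.06, adjusted p = 0.135). Neither gene's ranges overlapped, and both were called higher under library size alone and on both TPM scales. ERG6, the methyltransferase that gives ergosterol its extra methyl group, had 359.7 and 339 CPM in nhp6ab, against 429.7 and 349 CPM in WT. The WT replicates of ERG6 differed more than those of any other enzyme gene here, with a SD of 56.8 CPM (n = 2), and its log2 fold change of -0.16 ± 0.10 SE was not called (adjusted p = 0.226); without WT replicate 2 it was -0.30 and was called (adjusted p = 0.0420). The ratio of ERG3 to ERG2 in TPM was 0.298 and 0.315 in nhp6ab, against 0.679 and 0.689 in WT.

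Levels per length spanned a wide range. In nhp6ab the highest member was ERG2 with 404 ± 6.83 TPM, followed by ERG10 (329 ± 0.886) and ERG20 (328 ± 6.72), and in WT it was ERG10 with 329 ± 3.36 TPM, followed by ERG2 (295 ± 11.7) and ERG20 (291 ± 14.4; SD, n = 2 each). ERG10 and ERG20 in nhp6ab, and ERG2 and ERG20 in WT, did not differ beyond their spread. ERG3 ranked 15 of 31 in nhp6ab and 7 of 31 in WT, the largest step down, and IDI1 ranked 7 in nhp6ab and 12 in WT, the largest step up. At the low end were UPC2, ARV1 and MOT3 in both strains. Over all 31 members the summed level was 4365 and 4382 TPM in nhp6ab, against 3826 and 3802 TPM in WT, a ratio of 1.15, whereas in TMM-scaled CPM the ratio of the sums was 0.945.

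**Figure D3:**
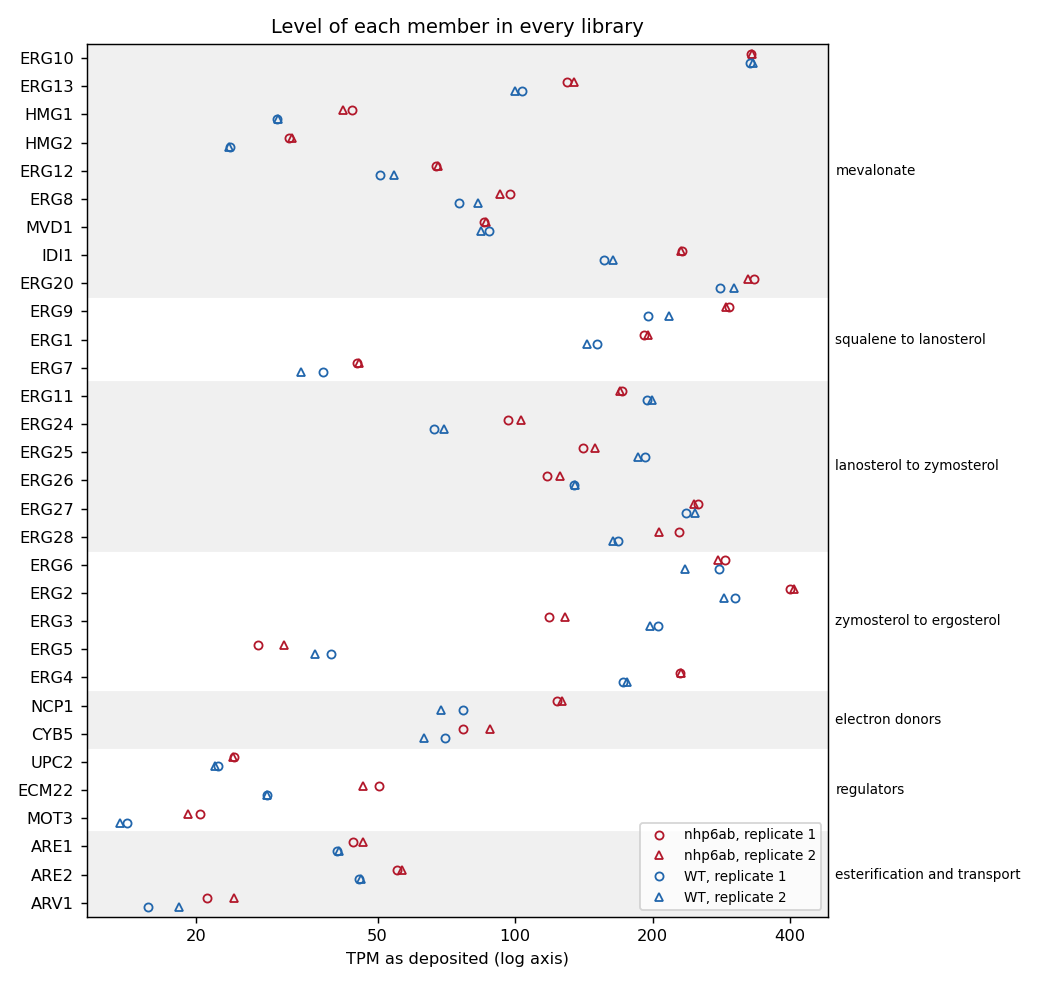
Deposited TPM of each member in every library, on a log axis, in route order. In ERG11, ERG25, ERG26, ERG3 and ERG5 both nhp6ab libraries lie below both WT libraries. In 22 members both lie above, and in the other 4 they overlap. TPM ranges were not counted over all genes. This scale is shifted upward for all genes: on log2(TPM + 1), 55.3% of them were called higher and 9.6% lower.

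None of the genes of esterification and transport was called, against 49.5% of all genes tested. ARE2 and ARE1 encode the acyltransferases that store sterols as esters, and ARV1 encodes a membrane protein of sterol transport. ARE2, the main isoenzyme, had 117.0 and 116.5 CPM in nhp6ab, inside the WT values of 119 and 115.6 CPM, with a log2 fold change of -0.01 ± 0.05 SE (adjusted p = 0.915 in edgeR). ARE1 had 88.9 and 91.1 CPM in nhp6ab, below 101 and 98.2 CPM in WT (-0.15 ± 0.05, adjusted p = 0.0560), and was called lower with upper quartile factors. It shares 298 bases with the annotated frame YCR050C, which had 0.961 ± 0.394 CPM in nhp6ab and 1.67 ± 0.251 CPM in WT (SD, n = 2 each), so its counts are slightly uncertain. The signs of ARE1 and ARE2 turned positive under library size alone and on both TPM scales, where ARE2 was called higher. ARV1 had a log2 fold change of 0.12 ± 0.09 SE (adjusted p = 0.309), and was called higher by library size alone (adjusted p = 0.0287) and on log2(TPM + 1) (0.0165). The ratio of ARE2 to ARE1 in TPM was 1.25 and 1.21 in nhp6ab, against 1.12 and 1.12 in WT.

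**Figure D4:**
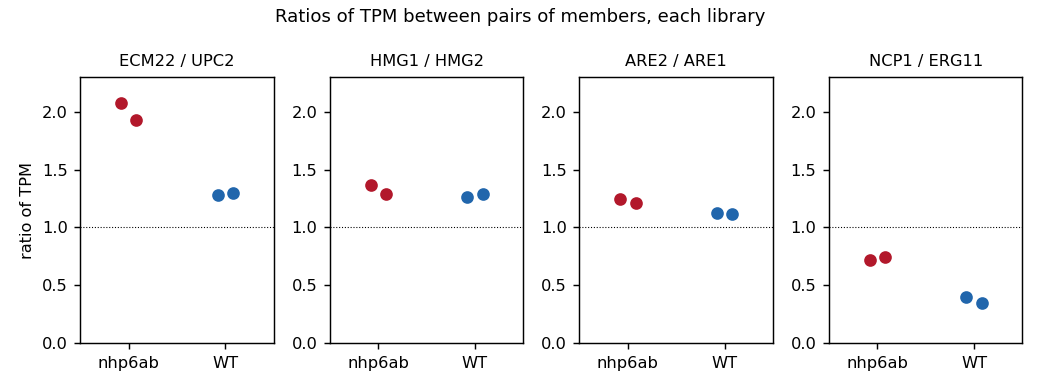
Ratio of TPM between pairs of members in each library, with nhp6ab left of WT. ECM22 over UPC2 was 2.08 and 1.93 in nhp6ab and 1.28 and 1.3 in WT, NCP1 over ERG11 was also higher in nhp6ab, HMG1 over HMG2 lay within 1.27 to 1.37 in all 4 libraries, and ARE2 over ARE1 was 1.21 to 1.25 in nhp6ab and 1.12 in WT.

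Several members share their promoter region with a gene transcribed the other way. MVD1 starts 235 bases from COQ2, which encodes the prenyltransferase of ubiquinone synthesis, and MVD1 fell while COQ2 rose. COQ2 had 33.7 and 28.6 CPM in nhp6ab, against 22.9 and 23.4 CPM in WT (log2 fold change of 0.43, SE 0.09, edgeR's adjusted p = 0.00741), but was not called without WT replicate 1 (adjusted p = 0.0757) or WT replicate 2 (0.0632). ERG24 lies 505 bases from PRM1, a gene of membrane fusion in mating, and here too the directions were opposite. PRM1 had 29.5 and 33.9 CPM in nhp6ab, against 46.3 and 48.7 CPM in WT (-0.58 ± 0.08, adjusted p = 0.00126), lost on log2(TPM + 0.1). NCP1 and SRB2, a Mediator subunit gene 678 bases away, both rose, SRB2 with 32.2 and 33.4 CPM in nhp6ab, against 25.2 and 25.4 CPM in WT (0.38 ± 0.06, adjusted p = 0.00238). Across the promoter from ERG3, SPT8, a SAGA subunit gene 780 bases away, was not called (-0.05 ± 0.08, adjusted p = 0.581; its sign turned positive under library size alone and on both TPM scales), and neither was HOS3, a histone deacetylase gene 875 bases from IDI1 (0.10 ± 0.10, adjusted p = 0.437).

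Among genes that regulate the route or turn over its enzymes, 6 of 17 rose and 4 fell. ROX1, the gene of the repressor of hypoxic genes, had 41.9 and 50.3 CPM in nhp6ab, against 24.8 and 23.5 CPM in WT (log2 fold change of 0.93, SE 0.10, edgeR's adjusted p = 0.000368). CYC8 (0.47 ± 0.08), which encodes a corepressor that works with Tup1, and SPT23 (0.24 ± 0.05), a membrane-bound activator of fatty acid desaturation, rose as well. UBC7 (-0.29 ± 0.05), the ubiquitin-conjugating enzyme that takes part in the breakdown of Hmg2, fell, but not with library size alone or on the TPM scales. SPT23 was not called without WT replicate 1 (adjusted p = 0.0578) or WT replicate 2 (0.0585). Without WT replicate 1 the list had 2 members lower, against 16.5% of all genes, and without WT replicate 2 it had 3 higher and 1 lower, against 14.2% and 17.1%. With library size alone 10 were higher and 0 lower, against 47.1% and 12.5% of all genes.

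Heme synthesis, which supplies the P450 enzymes, had 2 of 8 genes higher and 1 lower. HEM1, the gene of the first enzyme, had 113 and 117 CPM in nhp6ab, against 67.1 and 69.9 CPM in WT (log2 fold change of 0.75, SE 0.06, edgeR's adjusted p = 9.57e-05), and HEM2, the gene of the second, had 212 and 202 CPM in nhp6ab, against 152 and 153 CPM in WT (0.44 ± 0.06). HEM15, ferrochelatase, which puts iron into heme, fell (-0.29 ± 0.05, adjusted p = 0.00421), although not with library size alone, and its log2 fold change was 0.01 on log2(TPM + 1). HEM1 and HEM2 were called higher in all 13 alternatives. Scaled by library size alone, 5 genes of the list were higher and 0 lower, against 47.1% and 12.5% of all genes.

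Of 13 genes on the isoprenoid branches, which draw on farnesyl diphosphate and its precursors, 3 rose and 3 fell. NUS1 (-0.56 ± 0.06 SE), a subunit of the dolichol-making prenyltransferase, had 40.5 and 42.0 CPM in nhp6ab, against 61.5 and 60.2 CPM in WT, and BTS1 (-0.62 ± 0.09), geranylgeranyl diphosphate synthase, had 14.8 and 14.6 CPM in nhp6ab, against 23.9 and 21.2 CPM in WT. Both fell in all 13 alternatives. COX10 (0.45 ± 0.09), of heme A synthesis, rose with COQ2, but 0 members of the list were called higher without WT replicate 1, against 14% of all genes, and 1 without WT replicate 2, against 14.2%. With library size alone 6 were higher, against 47.1% of all genes.

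Sterol uptake, ester hydrolysis, transfer and acetylation genes moved both ways: of 24 tested, 8 rose and 7 fell, and SWH1 was listed at 0 in every library. ATF2 and SAY1, whose products acetylate and deacetylate sterols, both fell. ATF2 had 26.2 and 28.1 CPM in nhp6ab, against 51.1 and 45.3 CPM in WT (log2 fold change of -0.83, SE 0.08, edgeR's adjusted p = 0.000255), and SAY1 had 21.8 and 23.1 CPM in nhp6ab, against 32.2 and 31.9 CPM in WT (-0.51 ± 0.07). Of the sterol transfer genes, LAM4 rose (0.44 ± 0.05) and SIP3 fell (-0.44 ± 0.06). SAY1 and SIP3 were not called on the TPM scales. The list had 4 members higher without WT replicate 1 and 4 without WT replicate 2, against 14% and 14.2% of all genes, and 14 higher and 3 lower with library size alone, against 47.1% and 12.5%. No test was made of any of these lists as a whole. The counts of each list under TMM scaling with all libraries stand beside 24.5% higher and 25% lower over all genes.

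**Figure D5:**
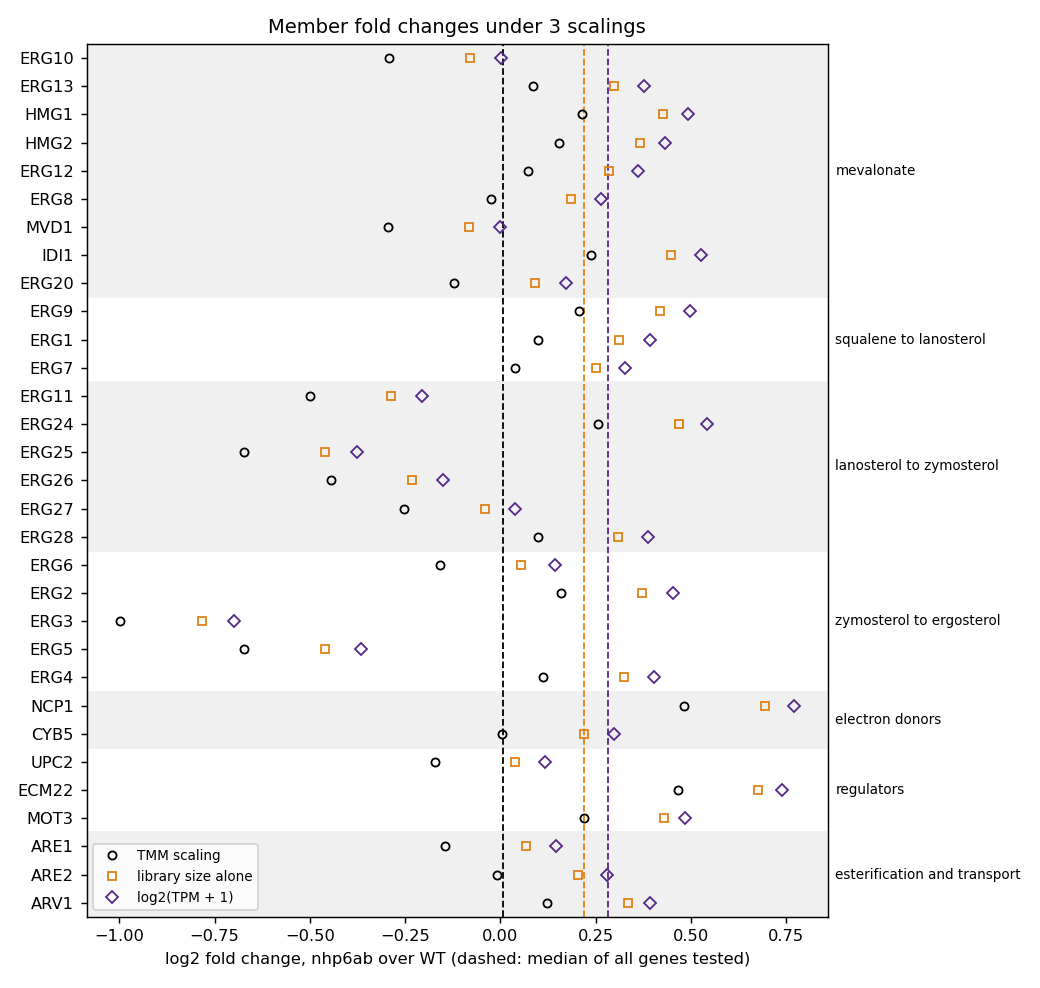
Log2 fold change of nhp6ab over WT for each member under TMM scaling, library size alone and log2(TPM + 1), with the median of all genes tested under each as a dashed line (0.01, 0.22 and 0.28). All points shift together with the scaling. ERG11, ERG25, ERG26, ERG3, ERG5 and MVD1 stay left of 0 under each, MVD1 at only -0.00096 on log2(TPM + 1). ERG26 is not called on the TPM scale, and of these scalings MVD1 is called under TMM alone.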

How the data were processed

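Polyadenylated RNA of 2 nhp6ab and 2 WT libraries was analysed, grouped by the titles in the labels. The authors deposited RSEM expected counts per gene and RSEM TPM values, as the deposited sheets name them. Per the submitters' processing notes, reads were set against sacCer3. Aligner, annotation, RSEM version and use of strand: not given in the sources used here. Reads of overlapping genes may therefore be mixed. Lines without an identifier (4) were left out, and 6005 of 6688 identifiers matched RefSeq's R64 annotation.

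The rounded expected counts went into edgeR 4.0.16 under R 4.3.3, with TMM factors and filterByExpr (min.count 10, min.total.count 15). Its quasi-likelihood test had no covariate besides strain and left 2 residual degrees of freedom. The Benjamini-Hochberg adjustment ran over 6422 genes. The SE is the size of the log2 fold change over the square root of F. CPM use the TMM factors. TPM were used for levels between genes and, with limma 3.58.1 on log2(TPM + 1) and log2(TPM + 0.1), as alternatives; DESeq2 1.42.0 was another. The test was checked on simulated data with no scaling difference between strains built in. That check does not bear on the choice of scaling. Coding sequences were compared with BLAST+ 2.17.0, and 0 members had a near-identical copy (at least 95% identity over 50% of the coding length).

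The members and lists were chosen with earlier results of these data known. The rule named every member, the genes across the promoter from called members, and up to 4 called genes of each related list by adjusted p.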

Additional observations from a re-analysis of the deposited data

How the results depend on the processing

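Of the 17 called members, 6 were called in the same direction in each of 13 alternatives and 11 were not. The matching share over all called genes was not counted. With library size alone 3023 genes were called higher and 800 lower, 18 members were higher and 5 lower, and the members' median was 0.25; on log2(TPM + 1) these were 3558, 618, 20, 4 and 0.33, and on log2(TPM + 0.1) 3542, 615, 20, 4 and 0.34. These scalings moved the median of all genes by a similar amount. Leaving out 1 library gave 901 to 1462 genes higher and 1063 to 1557 lower, 2 to 8 members higher and 6 to 9 lower, and a members' median of 0.02 to 0.05. The lowest count of members higher came without WT replicate 1. In these fits the lone library of a strain is assumed to vary like those of the other.

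Some signs turned, given as log2 fold changes. With library size alone they became 0.19 (ERG8), 0.091 (ERG20), 0.054 (ERG6), 0.039 (UPC2), 0.067 (ARE1), 0.20 (ARE2) and 0.16 (SPT8). On log2(TPM + 1) and log2(TPM + 0.1) they became 0.00092 and 0.00093 (ERG10), 0.26 and 0.27 (ERG8), 0.17 and 0.17 (ERG20), 0.0397 and 0.0398 (ERG27), 0.14 and 0.14 (ERG6), 0.12 and 0.12 (UPC2), 0.14 and 0.15 (ARE1), 0.28 and 0.29 (ARE2), 0.0064 and 0.0065 (HEM15) and 0.24 and 0.24 (SPT8). CYB5 became -0.0095 with upper quartile factors. With 1 library left out, signs turned within the ranges -0.090 to 0.030 (ERG8), -0.066 to 0.15 (ERG7), -0.0075 to 0.19 (ERG28), -0.091 to 0.12 (CYB5), -0.030 to 0.014 (ARE2), -0.066 to 0.24 (HOS3) and -0.15 to 0.053 (SPT8). The cause was not tested.

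Same-numbered libraries did not deviate together over all genes (correlation of -0.0527). That value cannot show whether they shared a culture, day or batch, since a sharing that moved few genes could give it too. With a replicate block 7 members were higher and 9 lower, 1626 and 1686 genes over all, and HMG2 (0.15) lost its call. With 2 libraries per strain, the main fit had 2 residual degrees of freedom per gene, and its test also drew on the variation of the other genes. The precision of each test rests on these few libraries.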
